A study of Mus musculus with 4 samples.

Results

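The miR-15/16 family is a group of microRNAs that share one seed, the bases through which a microRNA pairs with its target transcripts. It was followed here through 6 probes, those for mmu-miR-15a, mmu-miR-15b, mmu-miR-16, mmu-miR-195, mmu-miR-322 and mmu-miR-497 (written below without the species prefix), taken by name from the 566 mouse miRNA probes of a nanoString nCounter panel. On this panel each mature miRNA is ligated to a tag, and coloured probes are then counted molecule by molecule. It was read in 4 libraries of tdTomato-labelled mouse retinal cells purified by flow sorting. The P2 RPC library held retinal progenitor cells (RPCs) of postnatal day 2, pooled from 8 retinas of Sox2-Cre:tdTomato mice, in which tamoxifen had been given on days 0 and 1. The other libraries held Müller glia (MG), the radial glia of the retina, all from Rlbp-Cre:tdTomato mice. P8 MG came from 52 retinas after tamoxifen on days 6 and 7, P11 MG from 32 retinas after tamoxifen on days 9 and 10, and adult MG from 40 retinas of animals given tamoxifen above the age of 21 days. All animals received 75 mg/kg of tamoxifen on consecutive days, and both Cre alleles are tamoxifen-inducible and act on a floxed-stop tdTomato reporter. P11 MG is titled P11/12, and the series' design text calls the progenitors adult in one place and P2 in another; the sample labels give P2. Sox2 is also active in Müller glia and in some amacrine cells, and Rlbp1 in the retinal pigment epithelium, so each label reaches beyond one cell type. The panel holds no messenger RNA that defines progenitors or Müller glia, so the labelled cell types could not be checked against such markers.

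Each group was 1 library, so no value below has a replicate error, no p-value is given, and every comparison is between these libraries. Cre line, cell type, age and number of retinas differ together between P2 RPC and the glia and cannot be told apart. Among the glia the same holds for age, age at tamoxifen and number of retinas. In pooled cells, fewer cells of a type and less RNA per cell cannot be told apart either. The lanes held 576117 to 769736 counts, of which 470304 to 695390 fell on mouse miRNA probes. Counts were scaled between lanes on the 100 most abundant miRNA probes. A probe counted as above background when its raw count lay over the average of the 8 negative controls of its lane by more than 2 of their SDs. Where 4 values stand in a row, here and later, their order is P2 RPC, P8 MG, P11 MG, adult MG. The threshold was 60.7, 137, 106 and 71.7 raw counts. Bracketed ranges are 95% intervals from the counts (exact Poisson or conditional binomial, Wilson for shares, and the delta method for a ratio of ratios) and cover counting error only. As a measure of lane error, the log2 ratios of 5 of the 6 spiked positive controls between 2 lanes had SDs of 0.081 to 0.18. Those of the 3 ligation controls had SDs of 0.10 to 0.26.

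As background, the family restrains cell division: its members bind transcripts of D- and E-type cyclins and their kinases, cell-cycle checkpoint kinases and the survival factor Bcl2, and slow the passage from G1 into S phase. In the mouse heart, miR-195 rises after birth as cardiomyocytes leave the cell cycle. Retinal progenitors divide until the first postnatal weeks, and Müller glia are among the last cells they form and are quiescent when mature. The mature sequences of the members, from RefSeq (GRCm38.p6), are shown because they set what the probes can tell apart. All 6 members were matched, each to its 5p product, which carries the family seed; the probe names give no arm. Capitals mark bases 2 to 8, the seed.
miR-15a: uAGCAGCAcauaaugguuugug
miR-15b: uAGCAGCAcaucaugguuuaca
miR-16: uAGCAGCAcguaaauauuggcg
miR-195: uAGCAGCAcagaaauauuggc
miR-497: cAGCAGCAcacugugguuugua
miR-322: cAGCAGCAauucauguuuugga
The seed was the same in 6 of 6 members. Of 1679 mature mouse miRNAs from RefSeq, 10 (0.596%) carried it, and the other 4 (miR-195b, miR-6342, miR-6353 and miR-6419) have no probe on the panel under those names.

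The members come from 4 places in the genome. miR-15a (chr14:61632075-61632096, minus strand) lies next to one copy of miR-16 (chr14:61631936-61631957, minus strand) within the long noncoding RNA gene Dleu2. miR-15b (chr3:69009775-69009796, plus strand) lies next to the other copy of miR-16 (chr3:69009918-69009939, plus strand) within Smc4, which encodes a condensin subunit used in mitotic chromosome condensation. The 2 copies yield the same mature miR-16, so its probe sums both. miR-497 (chr11:70234730-70234751, plus strand) and miR-195 (chr11:70235062-70235082, plus strand) are neighbours. miR-322 (chrX:53054306-53054327, minus strand), the mouse counterpart of human miR-424, lies beside miR-503 within the noncoding gene C430049B03Rik. Compared from the 5′ end, miR-15a and miR-15b differ at 4 of 22 positions and miR-16 and miR-195 at 2 of 21, so cross-capture between these probes is possible in principle. In P2 RPC, however, the whole count of the miR-195 probe was 0.262% (0.212 to 0.321) of the miR-16 count. That limits only the capture of miR-16 by the miR-195 probe. It sets no limit on the capture of miR-195 by the miR-16 probe. For miR-15a and miR-15b no such limit could be set, since both were abundant in every library.

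In P2 RPC, miR-16, miR-15b and miR-15a ranked 2, 8 and 16 among the 566 probes by count. The 6 family probes took 64887 raw counts, 13.5% (13.4 to 13.6) of all mouse miRNA counts. The share was 5.79% (5.72 to 5.85) in P8 MG, 3.46% (3.41 to 3.51) in P11 MG and 1.14% (1.116 to 1.17) in adult MG. It was thus lower in each successive library. A share falls also when other miRNAs gain counts, but the summed normalized count of the family was likewise 2.33-fold lower in P8 MG and 6.44-fold lower in adult MG than in P2 RPC. Over the main scaling and 8 others the log2 ratio of that sum for adult MG against P2 RPC lay between -3.56 and -2.25. Of the family's counts, miR-16 provided 55.2% in P2 RPC and 79.7% in adult MG, and miR-15b 30.9% and 10.7%. Probes differ in capture efficiency, so these are shares of counts and not of molecules.

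**Figure D1:**
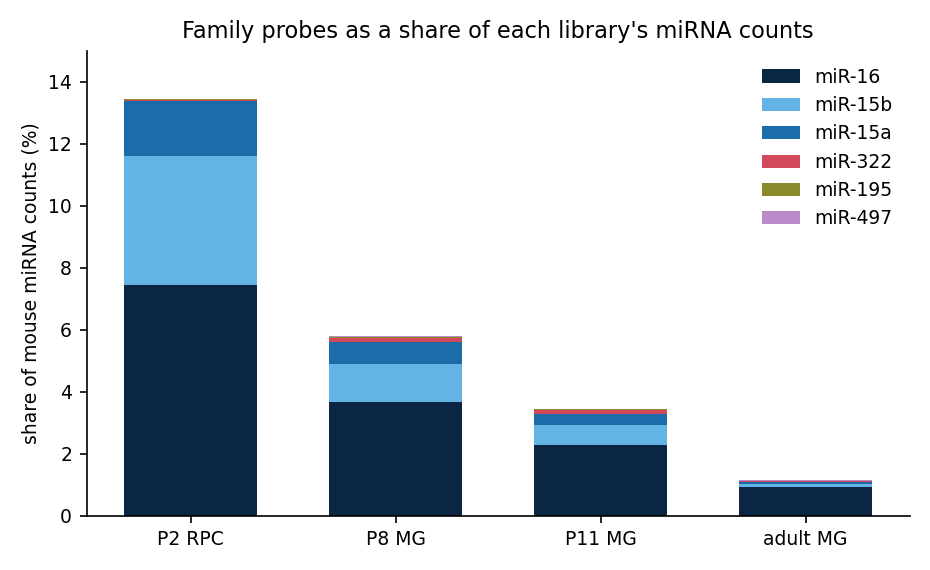
Stacked bars of the 6 family probes as a percentage of all mouse miRNA counts (y axis) in each of the 4 libraries (x axis), 1 library per bar, with no replicate error. The family takes 13.5% in P2 RPC and 1.14% in adult MG, and miR-16, miR-15b and miR-15a make up nearly all of each bar.

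Across the libraries the members followed 3 courses. miR-15a, miR-15b and miR-16 were highest in P2 RPC and lowest in adult MG, miR-322 was highest in P8 and P11 MG, and miR-195 and miR-497 stayed near background throughout. miR-16 was the second most abundant of 566 probes in P2 RPC, where its normalized count was 32399 (32064 to 32736). The glial libraries had 15933 (15696 to 16173), 12006 (11783 to 12231) and 7263 (7085 to 7444), and in the adult one miR-16 ranked 15. miR-15b had 18106 (17856 to 18358), 5419 (5281 to 5559), 3347 (3230 to 3468) and 973 (908 to 1040) normalized counts. For both miRNAs no neighbouring libraries had overlapping counting intervals, which are narrow at such high counts. How many other probes also lacked overlap was not counted. miR-15a had 7767 (7603 to 7933), 3069 (2965 to 3175), 1818 (1732 to 1907) and 545 (497 to 597) normalized counts, again without overlap. The plot of normalized counts by member shows these steps against the background of each lane.

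**Figure D2:**
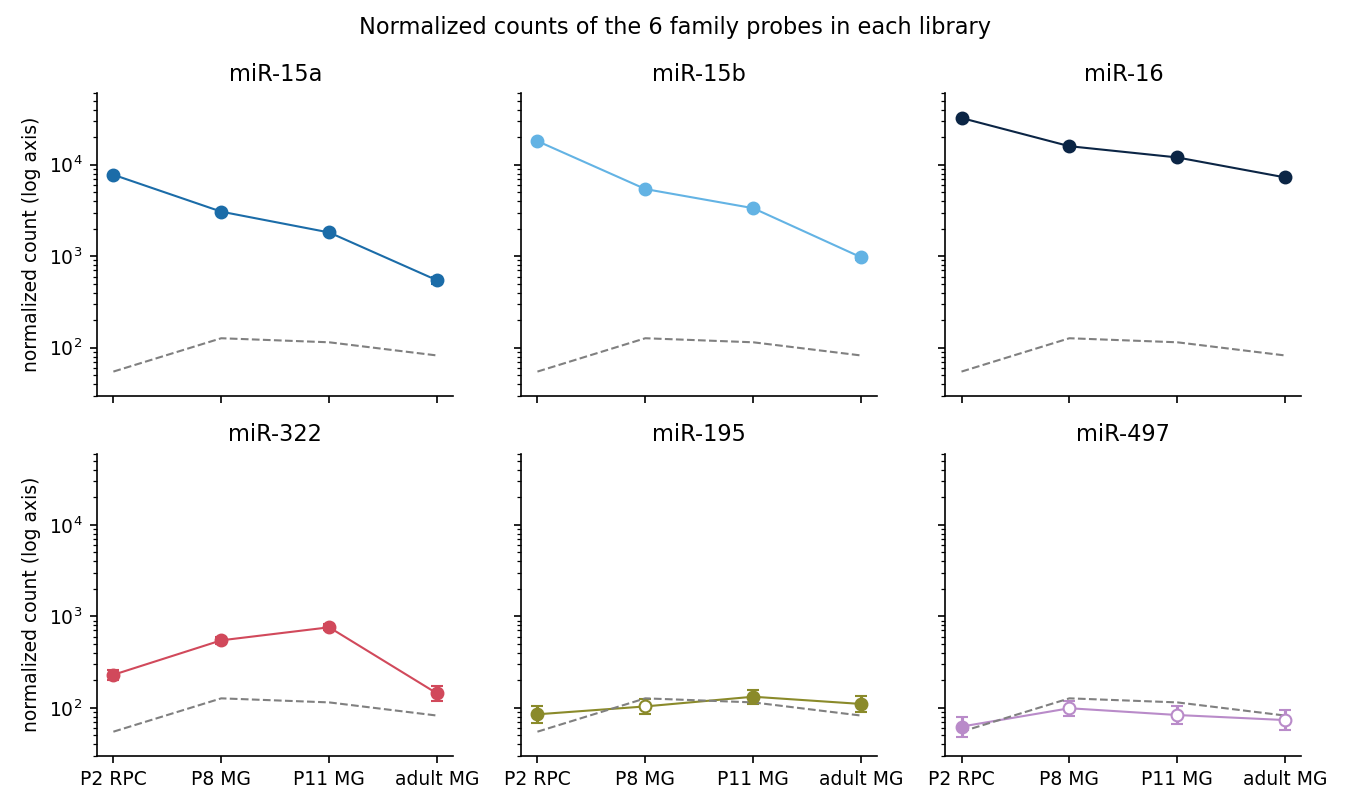
Normalized counts (y axis, log scale) of each family probe in the 4 libraries (x axis), with 95% Poisson intervals of the count; filled points are above and open points at or below the lane's background threshold, drawn as a dashed line. miR-15a, miR-15b and miR-16 descend from P2 RPC to adult MG, miR-322 peaks at 759 in P11 MG, and miR-195 and miR-497 lie along the threshold.

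A member was called higher or lower between libraries when the ratio was at least 2-fold, its interval excluded equality and the larger of both counts was above background. In P8 MG against P2 RPC, 3 of 6 members were lower and 1 was higher, beside 9.17% of the 229 tested probes lower and 12.7% higher. A lower call needs a count well above the threshold of the other library. The abundant miR-16, miR-15b and miR-15a had such counts, and weak probes could not be called. Here and below, these shares therefore set no expected number of calls for the members. miR-15b was 3.34-fold lower (3.25 to 3.44), miR-15a 2.53-fold lower (2.43 to 2.64) and miR-16 2.03-fold lower (1.997 to 2.07). The call for miR-16 was at the edge of the threshold and did not hold with scaling on the ligation controls or on 50 probes in place of 100. miR-322 was 2.38-fold higher (2.05 to 2.77) in P8 MG, and this call was lost on housekeeping mRNAs, on their sum and on TMM factors, where its log2 ratio went as low as 0.23. Over the 6 members the log2 ratios had a median of -0.22, with 2 of them at a bound, against 0.39 over all tested probes. Only 134 probes were above background in P8 MG, so the rest of the 229 had ratios set by its high threshold. The all-probe medians of the later comparisons include such bounds too, so no median is read as a rise or fall of all miRNAs.

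From P8 to P11 MG no member was called (0 of 5, miR-497 being at background in both), beside 6.37% of 157 probes lower and 2.55% higher. miR-15a was 1.69-fold lower (1.59 to 1.79), miR-15b 1.62-fold lower (1.55 to 1.69) and miR-16 1.33-fold lower (1.30 to 1.36). Intervals of counting error are narrow at such counts, and how many of the 157 probes also excluded equality was not counted. Under the 8 other scalings the log2 ratio of miR-16 lay between -0.68 and -0.27. miR-15a crossed 2-fold on total counts and on the ligation controls, with a log2 ratio of -1.03 on the former. miR-322 stood 1.39-fold higher (1.24 to 1.55) in P11 MG. The 5 tested members had a median log2 ratio of -0.41, and all tested probes one of 0.0046.

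In adult MG against P11 MG, 3 of 5 members were lower and 0 higher, beside 12.3% and 12.8% of 179 probes. miR-322 was 5.28-fold lower (4.36 to 6.45), the second lowest ratio among the tested probes. miR-15b was 3.44-fold lower (3.19 to 3.72) and miR-15a 3.33-fold lower (3.01 to 3.70), and these 3 calls held under all 8 other scalings. miR-16 was only 1.65-fold lower (1.60 to 1.71) and passed the threshold on total counts alone. Over these 5 members the log2 ratios had a median of -1.74 against -0.17 over all tested probes.

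Over the whole span, adult MG against P2 RPC, 3 of 6 members were lower and 0 higher, beside 16.5% and 20.7% of 242 probes. miR-15b was 18.6-fold lower (17.4 to 20.0), the seventh lowest of the 242, miR-15a 14.2-fold lower (13.0 to 15.7) and miR-16 4.46-fold lower (4.34 to 4.58). Under the 8 other scalings the log2 ratio of miR-15b lay between -5.09 and -3.78, that of miR-15a between -4.71 and -3.39 and that of miR-16 between -3.03 and -1.72, so all 3 calls held. miR-322, at 1.60-fold lower (1.29 to 1.998), was not called, except with scaling on total counts or housekeeping mRNAs. In adult MG against P8 MG, 4 of 5 members were lower and 0 higher, beside 17.2% and 15% of 180 probes. These were miR-15a (5.63-fold), miR-15b (5.57-fold), miR-322 (3.81-fold) and miR-16 (2.19-fold), and the miR-16 call held under only 3 of the 8 other scalings. The members' median log2 ratios were -1.42 against P2 RPC and -1.93 against P8 MG, and those of all tested probes 0.22 and -0.26.

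**Figure D3:**
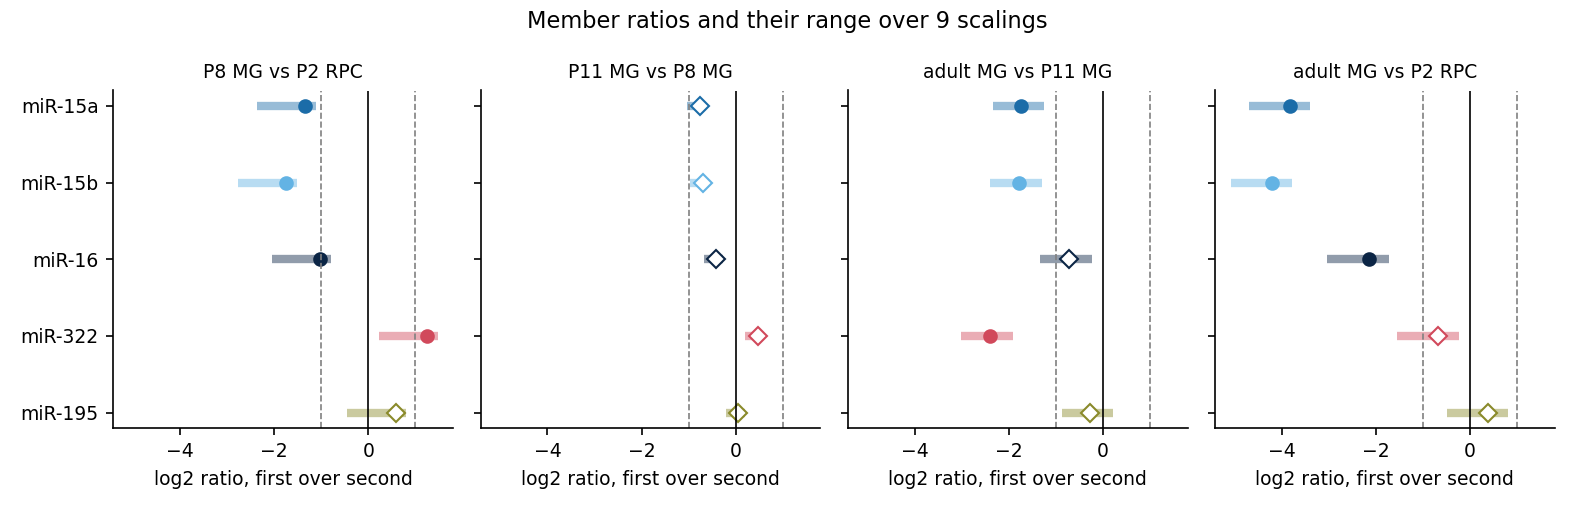
Log2 ratio of the first over the second library (x axis) for 5 members (y axis) in 4 comparisons; points are the main scaling, filled circles where the member was called and open diamonds where it was not, bars span the main and 8 other scalings, and dashed lines mark 2-fold. miR-15a and miR-15b stay beyond 2-fold lower under every scaling in the first, the third and the fourth panel, while miR-195 straddles 0 in all 4.

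Markers of other retinal cells were also highest in P2 RPC, though not all of them were called lower at each step. The photoreceptor and neuronal miRNAs miR-183, miR-96, miR-182 and miR-124 were all above background in P2 RPC and P8 MG (4 of 4), and all but miR-182 in P11 and adult MG (3 of 4). Their summed normalized counts were 26614, 8456, 2695 and 2169. From P2 RPC to P8 MG and from P8 to P11 MG all 4 were called lower, and from P11 to adult MG only miR-96 of the 3 tested. miR-96 had 12811, 3445, 629 and 285 raw counts and miR-183 had 7352, 2111, 543 and 353. The neuronal miR-124 had 7015, 3117, 1220 and 1211. From P11 to adult MG its scaled ratio was 1.05 (0.97 to 1.14), while its share of miRNA counts went from 0.252% to 0.174%. At that step miR-96 was 2.08-fold lower and miR-183 1.45-fold lower. The part of such cells in the fall of the family was not tested. Of red blood cells, which are rich in miR-16, the marker miRNAs miR-451, miR-144 and miR-486 were at or below background in all 4 libraries (0 of 3 in each), with summed levels between 45.2 and 89.9 normalized counts. miR-451, the most abundant of them in erythrocytes, had 18 to 38 raw counts.

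miR-16 and its cluster partners did not fall by the same factor. A ratio of 2 probes within a library does not depend on lane scaling, and only its change between libraries is read here, because probes capture with different efficiency. The miR-16 to miR-15b count ratio was 1.79 (1.76 to 1.82), 2.94 (2.85 to 3.03), 3.59 (3.45 to 3.73) and 7.47 (6.95 to 8.03). The miR-16 to miR-15a ratio was 4.17 (4.07 to 4.27), 5.19 (5.003 to 5.39), 6.60 (6.27 to 6.95) and 13.3 (12.1 to 14.6). Both ratios were thus higher in each successive library, with no overlap of neighbouring intervals. These intervals leave out lane error, and how many other pairs of probes also lacked overlap was not counted. From P2 RPC to adult MG, miR-16 gained 4.17-fold (3.88 to 4.49) relative to miR-15b and 3.19-fold (2.90 to 3.51) relative to miR-15a. The step from P11 to adult MG contributed 2.08-fold (1.92 to 2.26) and 2.02-fold (1.81 to 2.24) of these. With the mean of the negative controls subtracted first, the gains over the whole span were 4.34-fold and 3.44-fold.

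miR-15a and miR-15b, from different chromosomes, kept a nearly fixed ratio within the glia. The miR-15a to miR-15b count ratio was 0.566 (0.543 to 0.591), 0.543 (0.512 to 0.577) and 0.561 (0.500 to 0.628) in the glial libraries from young to old, with overlapping intervals. In P2 RPC it was 0.429 (0.418 to 0.440), below all 3 glial libraries. The change from P2 RPC to P8 MG was 1.32-fold (1.26 to 1.39). Whether cross-capture between the 2 probes holds their ratio steady was not tested.

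**Figure D4:**
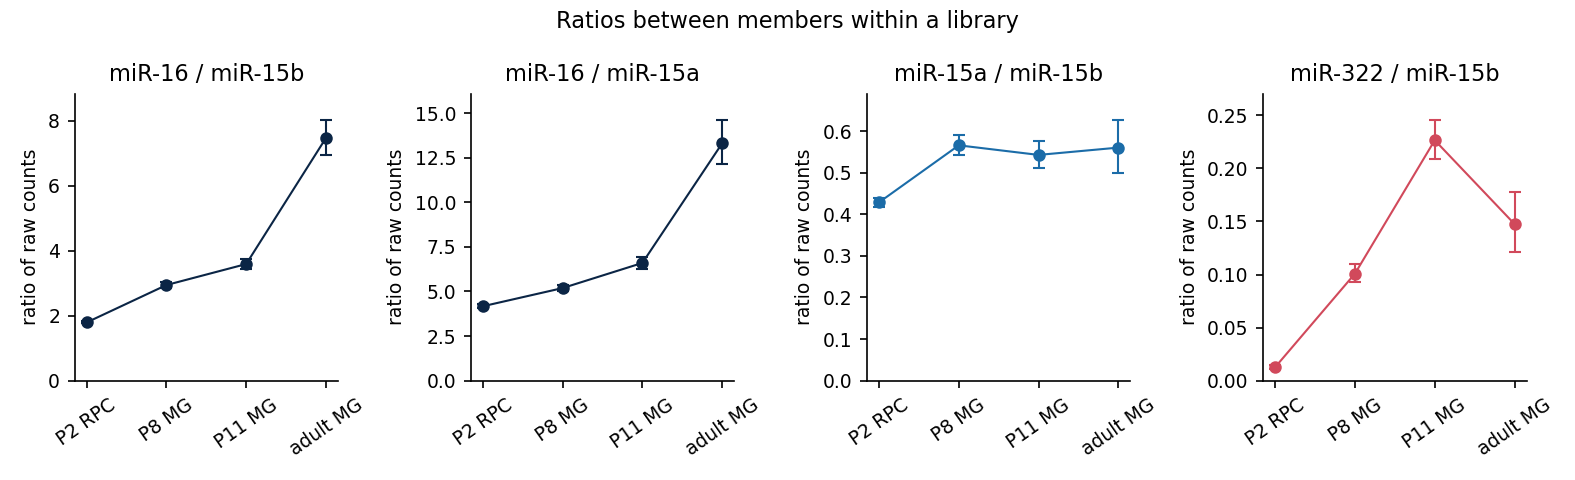
Ratio of the raw counts of a pair of family probes within a library (y axis, from 0) for each of the 4 libraries (x axis), with exact conditional binomial 95% intervals; each panel is one pair. miR-16 over miR-15b goes from 1.79 to 7.47 and miR-16 over miR-15a from 4.17 to 13.3, miR-15a over miR-15b is level in the glia, and miR-322 over miR-15b is highest in P11 MG at 0.227.

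miR-322 stood apart from the miR-15 and miR-16 members. Its raw counts were 254, 591, 700 and 125, or 229.6 (202 to 260), 547 (503 to 592), 759 (703 to 817) and 144 (119 to 171) normalized counts. It was above background in all 4 libraries but only 1.74 times the threshold in adult MG. Relative to miR-15b it was 7.96-fold higher (6.85 to 9.24) in P8 MG than in P2 RPC and a further 2.25-fold higher (1.997 to 2.53) in P11 MG. From P11 to adult MG it fell more than miR-15b, to 0.651 (0.531 to 0.799) of the former ratio, and more than miR-16, to 0.313 (0.258 to 0.379). On the log2 scale the contrast with miR-15b at this step was -0.62, with -1.001 after subtraction of the negative control mean and -1.99 in the authors' score table. Between P8 and adult MG the contrast with miR-15b had no settled direction: it was 0.55 (0.25 to 0.85) on the log2 scale, 0.25 after subtraction of the negative control mean and -0.61 in the authors' score table.

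White blood cell and microglial markers took several courses, of which some peaked in P8 or P11 MG. Of 6 listed miRNAs, 1 was above background in P2 RPC (miR-142-5p) and 4 in each of the glial libraries, and the summed normalized counts were 296.5, 1132, 1312 and 683. miR-146a, induced by inflammatory signals, had 56 (at background), 407, 576 and 125 raw counts, and like miR-322 was highest in P11 MG. miR-142-3p, a blood cell miRNA, had 42 (at background), 262, 205 and 73, while miR-223 and miR-155 were at or below background throughout. From P2 RPC to P8 MG, where miR-322 was called higher, 4 of the 4 tested markers were called higher too. Of these, 3 were at a bound, and 12.7% of all 229 tested probes were called higher. From P11 to adult MG, miR-146a and miR-142-3p were called lower, 2 of the 4 tested, beside 12.3% of 179 probes. miR-142-5p had 157, 315, 259 and 226 raw counts, and miR-150, a lymphocyte miRNA, had 50 (at background), 173, 119 and 145. Neither of these was called between glial libraries. The endothelial miR-126-3p had 340, 462, 360 and 208 raw counts and its partner arm miR-126-5p was at or below background; of 5 mural and mesenchymal miRNAs only miR-199a-3p was above background, in P2 RPC. The part of such cells in the miR-322 counts was not tested.

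The neighbours of miR-322 on the X chromosome were mostly not detectable. miR-503, whose seed differs from the family's in its last base, had 13, 32, 29 and 14 raw counts and was at or below background in all 4 libraries.
miR-503: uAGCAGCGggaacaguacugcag
Of the 8 probes of the cluster besides miR-322, 2 exceeded background in any library. miR-450a-5p had 206, 104, 183 and 65 raw counts, at background in P8 and adult MG, so it was not higher in P8 MG than in P2 RPC as miR-322 was. It was at least 2.41-fold lower in adult MG than in P11 MG. miR-542-5p, with 96, 145, 106 and 88 raw counts, stayed within 1.58 times the threshold.

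miR-195 and miR-497 were too weak for their course to be read. miR-195 had 94, 112, 122 and 96 raw counts, above background in P2 RPC, P11 MG and adult MG but at most 1.55 times the threshold. It was called in none of the 5 comparisons, under the main or any of the 8 other scalings, and its adult MG to P2 RPC ratio of 1.30 (0.97 to 1.74) did not exclude equality. miR-497 had 69, 107, 77 and 64 raw counts and exceeded background in P2 RPC only, at 1.14 times the threshold. A member hidden under the P8 MG threshold of 137 raw counts would not have been detectable there.

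The probes with courses most like each member were found among 113 other miRNAs above background in all 4 libraries, by the root mean square difference of log2 counts centred over the 4 libraries. For miR-15b they were miR-106b (0.14), miR-19b (0.24) and miR-93 (0.26), and for miR-15a they were miR-106b (0.09), miR-93 (0.24) and miR-130b (0.29). miR-106b and miR-93 belong to the miR-106b/25 cluster and miR-19b to the miR-17/92 family, both abundant in dividing cells. miR-15a lay closer to miR-106b than to miR-15b (0.16), and both lay farther from miR-16 (0.63 for miR-15a and 0.74 for miR-15b). The nearest to miR-16 were miR-1196 (0.23), miR-107 (0.24) and miR-872 (0.24). For miR-322 they were miR-709 (0.36), the hypoxia-induced miR-210 (0.39) and miR-335-3p (0.46), and its distances to miR-15a, miR-15b and miR-16 were 1.45, 1.60 and 1.16. These distances describe probes read in the same 4 libraries, and carry no test.

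miR-103 and miR-107 belong to the wider group around the family: they hold the same core shifted by one base, so their seed, in capitals, is not the family's.
miR-103: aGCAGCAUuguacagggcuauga
miR-107: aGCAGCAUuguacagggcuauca
miR-103 had 1479, 830, 653 and 468 raw counts and fell 2.49-fold (2.24 to 2.77) from P2 RPC to adult MG. miR-107 had 488, 204, 156 and 118 and fell 3.26-fold (2.66 to 4.02). The sequences of miR-103 and miR-107 differ only near their last base. Cross-capture between their probes is therefore possible in principle and was not tested. Both ratios were smaller than those of miR-16, miR-15a and miR-15b, and of the glial steps from P8 to P11 and from P11 to adult MG neither miRNA was called in either.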

How the data were processed

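The main values are the deposited raw counts, whole numbers for each of 626 probes, whose header records no normalization. A second table by the authors was treated as a score and served as an alternative. How it, and the raw table, were made, with which software and build, is not given in the sources used here. At least 98.7% of its values were reproduced to within 1 unit by taking the negative controls' mean and 3 of their SDs off the count, multiplying by 1 factor per lane (0.771 to 1.34) and setting a floor of 1. In each lane 376 to 457 of the 566 mouse miRNA probes had a score of 1. The factor was fitted on the high scores of the same lane, so part of the agreement is built in.

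Lanes were brought to 1 scale through 6 positive controls and then the 100 most abundant miRNA probes, by geometric means, with factors of 0.904, 0.925, 1.08 and 1.15 from P2 RPC to adult MG. In a ratio, a value not above background was replaced by the threshold, which makes the ratio a bound. Scaled ratios had exact conditional binomial intervals (scipy 1.17.1). The steps were tested on simulated counts. Alternatives were other scalings (edgeR 4.0.16 for TMM factors), background rules, fold thresholds and the score table. The named miRNAs are the members, the list members (partner arms, related seeds, miR-322 neighbours, other antiproliferative miRNAs, marker miRNAs) and the 3 probes nearest each member; 9 partner-arm names had no probe. Members and lists were chosen with earlier results of these data known.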

Additional observations from a re-analysis of the deposited data

How the results depend on the processing

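Of 150 member counts recomputed under 15 settings, 138 stayed within 1.5 times. Of 399 member log2 ratios, 158 moved beyond their counting interval. A reversal was counted only where the member was called, and there were 0. Uncalled ratios did change sign. That of miR-195 in P8 MG against P2 RPC went from 0.58 to -0.45 on housekeeping mRNAs. In P8 MG against P2 RPC, the 1 higher member became 0 on housekeeping mRNAs, summed housekeeping mRNAs, TMM factors, a 3-fold threshold and the score table, and the 3 lower became 1 at 3-fold. In P11 MG against P8 MG, 0 lower became 1 on total counts and on ligation controls and 2 at 1.5-fold. With the authors' score, 1 member, miR-195, was higher in adult MG against P11 MG and against P8 MG, with a score of 10 against the floor of 1. Against P2 RPC, 5 members were lower in adult MG, among them miR-195 with a score of 10 against 21. The log2 contrast of miR-322 with miR-15b was 1.38 in the score table for P11 MG against P8 MG; for adult MG against P11 MG it was -1.001 after background subtraction and -1.99 in the score table; for adult MG against P2 RPC it was 2.41 in the score table; and for adult MG against P8 MG it was 0.25 after subtraction and reversed to -0.61 in the score table. That of miR-16 with miR-15b, an alternative chosen after seeing the data, was 2.20 in the score table for adult MG against P2 RPC. Beyond the background taken off, the cause was not tested. Relative to the main scaling, the others shifted all log2 ratios of a comparison by up to -1.03 (housekeeping mRNAs, P8 MG against P2 RPC). No called member ratio changed sign. No paired analysis was possible because each group has 1 library. Signal over background limits miR-195, miR-497 and the adult MG value of miR-322.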

Other observations

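Other miRNAs known to restrain the cell cycle were mostly weak on this panel. Of 10 such probes (the miR-34, miR-449 and miR-26 families and miR-24), 7 exceeded background in any library and 3 in all 4. In adult MG against P2 RPC, 0 of the 7 tested were lower and 1, miR-24, was higher, beside 16.5% and 20.7% of all 242 tested probes. Only miR-26a and miR-26b had P2 RPC counts high enough for a 2-fold fall to be called. The 0 can therefore not be set against the 16.5%. Among the 7 the median log2 ratio was 0.32, with 3 at a bound, against 0.22 over all tested probes. From P2 RPC to adult MG in order of age, miR-26b had 450, 410, 415 and 579 raw counts, and miR-26a 290, 251, 200 and 207. miR-24 had 71, 162, 118 and 122, at most 1.70 times the threshold. miR-34a had 78, 125, 74 and 99, above background in P2 RPC and adult MG only. miR-449a had 98, 73, 45 and 34, above background in P2 RPC only, so a 2-fold fall could not have been called. The other weak members at a bound were miR-34b-5p and miR-34b-3p.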
